A study of Mus musculus with 16 samples.

Results

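The 52 genes described here serve the cilium of the photoreceptor. They were chosen by symbol, as genes of intraflagellar transport, of the BBSome, of the transition zone and of the connecting cilium, among them genes of Joubert, nephronophthisis and Usher disease. All 52 symbols were found among the 25905 genes listed for the retina. The retinas came from right eyes of wild type male C57BL/6 mice, and RNA sequencing libraries were made from 100 ng of total RNA each. The mice were 10 weeks old when the experiment began. The Flight group had 8 mice that lived on the International Space Station for 35 days, with eyes collected within about 38 hours of splashdown. The Ground Control group had 8 mice kept on Earth in matching flight hardware, and both were fed the NASA food bar. The study asked how spaceflight changes retinal gene expression. The columns of counts per library carry laboratory codes that match no label, so the groups could not be compared from them, and flight against ground control was not analysed here. What follows is the level of each gene in these retinas, as the mean of normalized counts over all 16 libraries, which is the authors' mean. This mean pools both groups and comes with no value per library and no SD. The accompanying rows of counts are 1 per RefSeq transcript, and how they were reduced to 1 value a gene is not given in the sources used here. For a gene with several listed transcripts the mean may therefore be that of a single transcript or of more. Whether neighbouring levels differ beyond the spread between mice was not judged for any gene, as the columns of counts were not used.

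The outer segment of a rod or cone is a modified cilium, and every protein in it must pass from the inner segment through a thin connecting cilium. Intraflagellar transport (IFT) particles carry cargo along the axoneme, with kinesin motors moving outward and a dynein motor moving back. The BBSome is a coat complex that takes membrane proteins across the ciliary gate, and the transition zone forms that gate. Mutations of many of these genes in humans cause retinitis pigmentosa or Leber congenital amaurosis, alone or within a syndrome that also affects the kidney, brain or ear.

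Defining genes of the retina were present. The lowest mean in the rod list was 88.9 (Nrl, a transcription factor of rods), and the cone list ran from 0.0699 (Pde6c) to 2800 (Opn1sw). Nrl and Pde6c are each listed with 2 transcripts, and for such genes the mean may be that of a single transcript. Genes of neighbouring tissue were also present. The summed mean was 1335 for 7 pigment epithelium markers and 1935 for 6 lens markers. The summed mean was 7020 for 8 cone markers, 11034 for 6 bipolar, 7969 for 5 amacrine, 4954 for 6 ganglion, 27093 for 5 Müller glia, 242 for 6 microglia and 1418 for 5 endothelial markers. The cone, bipolar, ganglion, Müller glia, pigment epithelium and endothelial lists hold genes with several listed transcripts, so these sums may be incomplete. Motile cilia of other cell types share some machinery with these genes, and 4 motile cilium genes had a summed mean of 203, from 3.21 for Rsph1 to 114 for Ccdc39. The part of any of these cells in the level of a cilium gene was not tested. In a whole tissue, fewer cells of a type and less RNA per cell cannot be told apart.

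Most cilium genes were expressed at a moderate level. The median of their mean normalized counts was 315, against 41.8 for the 19667 genes above 0. A mean above 1000 was listed for 10 genes, between 100 and 1000 for 31, between 10 and 100 for 4, and under 10 for 7. Together the 52 genes held 27920 normalized counts, which is 0.399% of the summed means. The 3 most abundant, Arl3, Cep290 and Bbs7, made up 26.3% of that. Of the 7 genes under 10, 6 are listed with several transcripts, and these are described as a group further on.

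**Figure D1:**
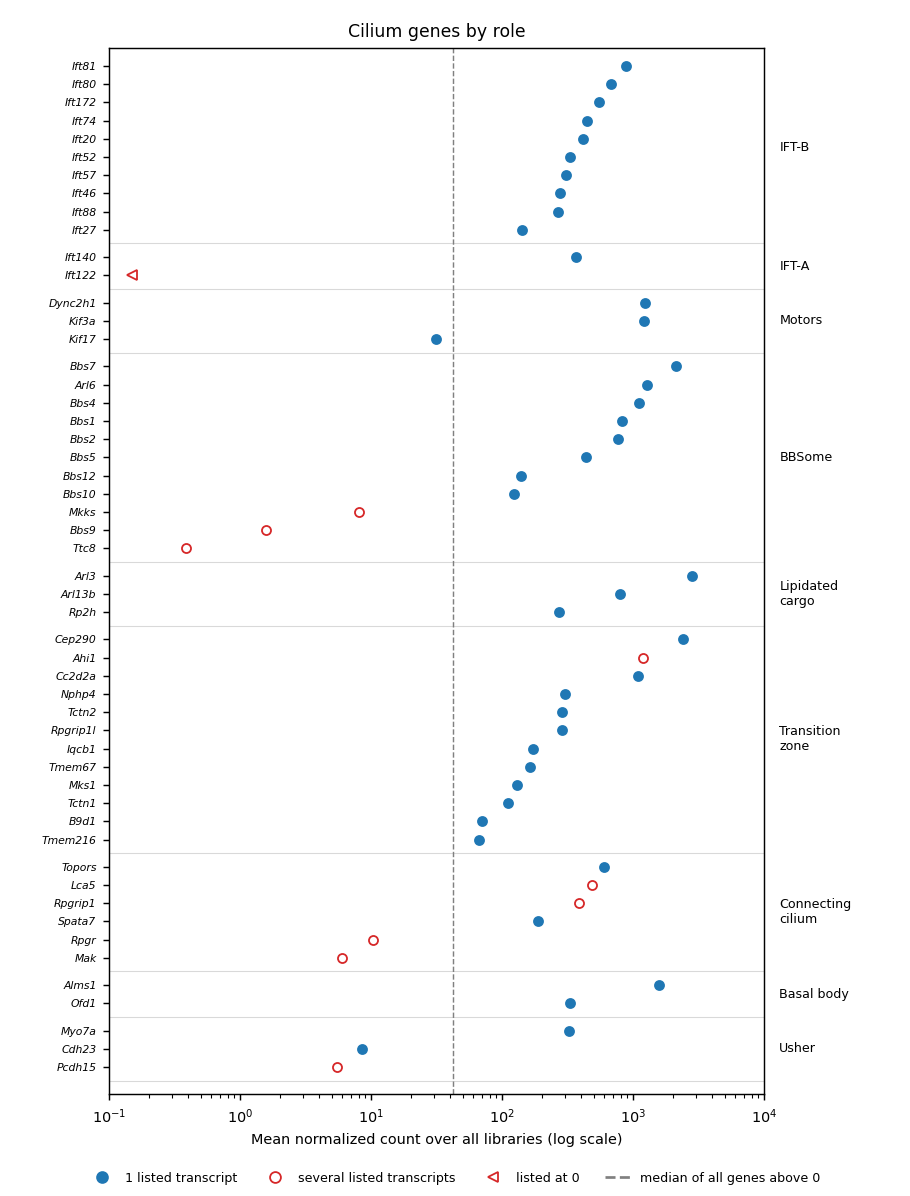
Mean normalized count over all 16 libraries (log scale) of each of the 52 genes, grouped by role. Filled points have 1 listed transcript and open points several, the triangle is Ift122, listed at 0, and the dashed line is the median of all genes above 0, at 41.8. Open points hold 6 of the 7 values under 10.

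The IFT-B particle carries cargo toward the ciliary tip. Its 10 genes, compared after division of the mean by transcript length, spanned a factor of 5.47 per kb of transcript, from Ift46 at 65.8 to Ift20 at 359.6. The lower end depends on the length used, since Ift46 has a long untranslated part. Per kb of coding length Ift46 was at 304 and Ift172 was lowest at 104, while Ift20 was again highest at 1036. By mean normalized count the highest was Ift81, at 882, whose protein binds tubulin together with that of Ift74. Ift80 followed at 677, Ift172 at 546, Ift74 at 441 and Ift20 at 410.4. Ift20 differs from the others in that its protein is also found at the Golgi. The rest were Ift52 at 326, Ift57 at 309, Ift46 at 274, Ift88 at 267 and Ift27 at 140.3. No IFT-B gene was under 100. Ift88 is the gene of the Oak Ridge polycystic kidney mouse, whose outer segments do not form properly. Ift27 encodes a small GTPase of the particle.

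The IFT-A particle is needed for the return journey and for the entry of some membrane proteins. Ift140 had a mean normalized count of 364. Ift122, from the same particle, is listed at 0. Both of its listed transcripts share nearly all of their exons.

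Among the motors, Dync2h1, the heavy chain of the return dynein, had a mean of 1222 and Kif3a, a motor subunit of kinesin-II, one of 1207. Their transcripts differ in length, 13972 bases against 3161. Per kb of transcript, Kif3a was at 382 and Dync2h1 at 87.5, so that Kif3a was 4.36 times higher on that scale. Kif17, another outward motor, was at 31.1, or 9.02 per kb, which is 42.3 times less than Kif3a per kb.

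The BBSome and its helpers are 11 genes, of which 3 were above 1000 and 3 under 10. Of its subunits, Bbs7 was highest with a mean of 2131, followed by Bbs4 at 1095, Bbs1 at 821, Bbs2 at 765 and Bbs5 at 434. Arl6, the small GTPase that recruits the coat to membranes, was at 1271. Bbs9 and Ttc8 (also known as BBS8) encode 2 further subunits of the same complex, yet were listed at 1.56 and 0.388. Both have 2 listed transcripts. Of the chaperonin-like genes that assemble the complex, Bbs12 at 138 and Bbs10 at 123 were lower than its subunits with 1 listed transcript. Mkks, the other chaperonin-like gene, was at 8.07 and has 2 listed transcripts.

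Per kb of transcript, the subunits with 1 listed transcript were Bbs7 at 793, Bbs4 at 435, Bbs5 at 296, Bbs2 at 249.8 and Bbs1 at 146. Bbs7 was thus 5.41 times higher than Bbs1, but only 2.15 times higher per kb of coding length, where Bbs2 was the lowest subunit at 354. Arl6 was at 749.5 per kb, and per kb of coding length it was above Bbs7, at 2278 against 993. Bbs10 was at 44.8 per kb and Bbs12 at 56.8, and Bbs7 was 17.7 times higher than Bbs10.

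Trafficking of lipid-anchored proteins into the outer segment held the most abundant cilium gene. Arl3, the GTPase that releases such cargo from its carriers inside the cilium, had a mean normalized count of 2816 on a transcript of 843 bases, or 3341 per kb. Arl13b, whose protein activates Arl3, was at 788, or 223 per kb. Rp2h, now named Rp2, encodes the protein that switches Arl3 off, and was at 270.1, or 61.1 per kb. Arl3 was thus 14.96 times higher per kb than its activator and 54.6 times higher than its inactivator. Per kb of coding length these ratios were 8.38 and 19.9. Arl3 was also 4.21 times higher per kb of transcript than the next cilium gene, Bbs7. Per kb of coding length the next was instead Arl6, at 2278 against 5158 for Arl3.

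Most transition zone genes had moderate means, and 3 were above 1000. Cep290, which links the microtubules to the membrane at the gate and is a frequent cause of Leber congenital amaurosis, had a mean of 2406. Ahi1, a Joubert gene with 2 listed transcripts, followed at 1180.4 and Cc2d2a at 1086. The other 9 lay between 66.9 and 300.4. These were Nphp4 at 300.4, Tctn2 at 285, Rpgrip1l at 285, Iqcb1 at 171, Tmem67 at 161, Mks1 at 128, Tctn1 at 111, B9d1 at 69.8 and Tmem216 at 66.9.

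Long transcripts gather more reads, and the order changed per kb. Cep290 remained the highest transition zone gene with 1 listed transcript, at 300.5, and Cc2d2a was at 198. B9d1, near the bottom by count, was at 85.4 per kb on its transcript of 817 bases. Tctn2 was at 83.7, Iqcb1 at 75.9, Tmem216 at 60.8, Nphp4 at 59.8, Mks1 at 51.4, Tmem67 at 46.7 and Rpgrip1l at 40.6. The length used for Tctn2 is that of a transcript without a coding length, matched by symbol only. Tctn1 was lowest at 19.4, and Cep290 was 15.5 times higher than it. Per kb of coding length that ratio was 5.19, and Tmem67 at 54.0 was lower than Tctn1 at 62.4. Tmem216 was at 257 on that scale, second to Cep290 at 323 among the 10 of these genes with a coding length.

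The genes of the connecting cilium whose defects mainly damage the retina had means from 5.95 to 592. Topors, a ubiquitin ligase found at the basal body, was at 592 and Lca5, or lebercilin, at 486. Rpgrip1, the anchor that holds RPGR at the connecting cilium, was at 387 and Spata7 at 187. Rpgr itself, the main gene of X-linked retinitis pigmentosa, was at 10.4, and Mak, a kinase that limits axoneme length, at 5.95. Rpgr is listed with 6 transcripts, Mak with 3, and Lca5 and Rpgrip1 with 2 each.

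At the basal body, Alms1 of Alström syndrome was at 1578 and Ofd1 at 329. Their transcripts are 9986 and 4453 bases long, and per kb they were at 158 and 73.8. Among the Usher genes, Myo7a, an unconventional myosin of photoreceptors and pigment epithelium, was at 321, or 47.2 per kb. The cadherins Cdh23 and Pcdh15, best known from the tip links of hair cells in the ear, were at 8.49 and 5.49. Cdh23 has 1 listed transcript of 11090 bases, and at 0.766 per kb it was the lowest of all 42 cilium genes with 1 listed transcript.

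Over those 42 genes the median level was 96.0 per kb, with quartiles of 60.9 and 219. The 15161 genes with 1 listed transcript, a length and a mean above 0 had a median of 33.8 per kb. The median cilium gene was therefore 2.84 times higher, at percentile 70.7 of these genes. Of the 42, 39 were above the median of all genes, and Cdh23, Kif17 and Tctn1 were below it. Per kb of coding length, 30 of 41 were above the median of all 13832 genes compared, and the median cilium gene was 2.66 times higher.

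**Figure D2:**
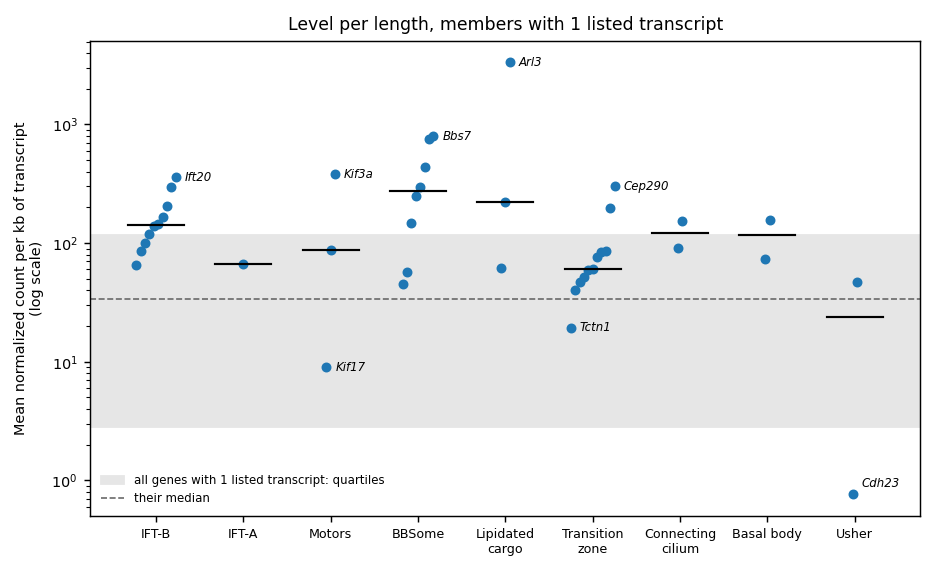
Mean normalized count per kb of transcript (log scale) of the 42 genes with 1 listed transcript, by role, with short bars at the median of each role. The grey band and dashed line are the quartiles (2.81 and 117) and median (33.8) of 15161 genes, and Arl3 at 3341 and Cdh23 at 0.766 mark the ends of the range.

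Of the 52 genes, 10 are listed with more than 1 transcript, and their median mean normalized count was 7.01 against 327 for the other 42. The same held over the whole table. The 22086 genes with 1 listed transcript had a median of 12.9, and 51.7% of them reached 10. The 3794 genes with several had a median of 0.806, and 24.6% of them reached 10. Because the count rows are per transcript, the sequence that tells the transcripts of a gene apart was measured on a reference annotation. How reads shared by several transcripts were treated is not given in the sources used here. The distinguishing sequence was taken as the number of 75-base windows, the read length, that lie within an unbroken stretch of exon bases of only 1 listed transcript. Reads across a splice junction, or partly over a shorter stretch, can also tell transcripts apart and are not in this number.

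Ift122, Bbs9 and Ttc8 had 0 such windows. Their 2 listed transcripts differ by 72, 69 and 74 bases, in stretches of at most 60, 56 and 38 bases. The means of these genes were 0, 1.56 and 0.388. Mak had 1 window and a mean of 5.95, and Mkks had 162 windows and a mean of 8.07. For Rpgr, where 5 of the 6 transcripts could be matched, there were 397 windows and a mean of 10.4. Rpgrip1, with 592 windows, had a mean of 387. Ahi1 had 1910 windows and Lca5 3057, with means of 1180.4 and 486. Pcdh15 stood apart, with 4209 windows over 14 transcripts and a mean of 5.49.

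Over all 2811 genes whose several transcripts were all matched, the median mean normalized count was 0.0594 for 567 genes with 0 windows. It was 0.694 for 674 genes with 1 to 200 windows, 2.79 for 739 genes with more than 200 and up to 1000, and 17 for 831 genes with more. The share of genes at 10 or above was 6.35% in the first of these classes and 56.4% in the last. How far the counting sets the level of Ift122, Bbs9, Ttc8, Mak, Mkks or Rpgr was not tested. A low mean for a gene with several listed transcripts therefore cannot, by itself, be read as low expression.

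**Figure D3:**
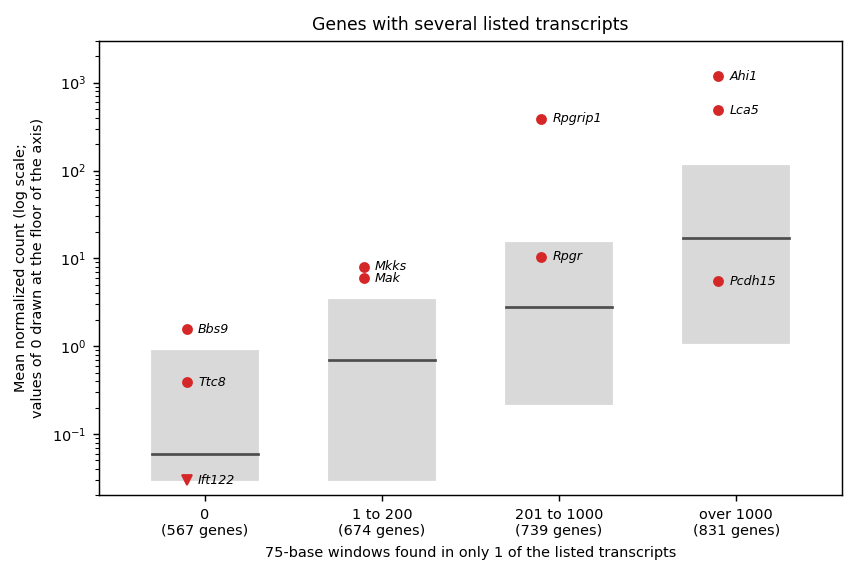
Mean normalized count (log scale, 0 drawn at the floor) against the number of 75-base windows found in only 1 listed transcript, for genes with several. Grey boxes are quartiles and dark lines medians of all genes in a class, from 0.0594 to 17, and red points are the 10 cilium genes, of which Ift122, Ttc8 and Bbs9 have 0 windows.

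Reads can also be shared with a neighbouring gene. In the reference annotation 6 of the 52 genes share exon bases with another listed gene. Tctn1 shares 27.5% of its exon bases with Hvcn1 on the opposite strand, Rpgrip1 17.1% with Supt16h, Cep290 9.69% with 4930430F08Rik, Mkks 5.41% with 2210009G21Rik and Ofd1 2.94% with Trappc2. Rpgr shares 1.36% with Srpx on the same strand. The libraries were stranded, but whether the counting used the strand is not given in the sources used here, so the levels of Tctn1 and Rpgrip1 in particular are uncertain.

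A list of 43 symbols of other cilium genes, older names included, had 36 in the table. Their median mean normalized count was 198, and the median of the 29 with 1 listed transcript was 88.5 per kb, beside 96.0 for the genes described above. The highest was Unc119, a carrier of lipid-anchored transducin that Arl3 unloads, at 7982, or 1.80 times Arl3 per kb. The lowest was Ush1c, listed at 0, with 3 transcripts. Of the 6 genes under 10 in this list, 5 have several listed transcripts.

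The promoters were read for sequence that cilium genes are known to share. RFX transcription factors bind the X-box, an inverted repeat found before many ciliary genes, and OTX and CRX homeodomain proteins bind TAATCC before many photoreceptor genes. Windows from 250 bases before to 50 after the start site, from RefSeq on assembly GRCm38.p6, were held for 48 of the 52 genes, not for Ift80, Ift81, Ift122 and Tmem67. The X-box half-site GTTGCC, searched on both strands, was in 20 of the 48 genes, or 41.7%, against 14.3% of 17492 protein-coding genes and 14.1% of all 27025 genes. The windows of the cilium genes had a median GC content of 59.3%, and windows of protein-coding genes one of 56.3%. The part of GC content in this difference was not tested.

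By role, the half-site was in 4 of 8 IFT-B genes, in Ift140, in all 3 motor genes, in 6 of 11 transition zone genes, in 3 of 11 genes of the BBSome group and in 0 of 2 basal body genes. It was also in 1 of 3 genes for lipid-anchored cargo, 1 of 6 connecting cilium genes and 1 of 3 Usher genes. The full X-box was searched as GTTGCC, any 2 bases, GG, any base and AAC, on both strands, and so holds the half-site. It was in 4 of the 48 genes, or 8.33%, and in 0.337% of protein-coding genes. Only this spacing was searched, so inverted repeats with another spacing are not among the 4. These 4 promoters are shown because they match the full pattern, with the X-box in capitals, 5′ to 3′ on the strand of the gene. The site begins 121 bases before the start site in Bbs7 and 24 before it in Mks1. It lies 21 bases after the start site in Ahi1 and 36 after it in Tctn1, and only the site and its nearest bases are printed there. In Ahi1 the match is on the opposite strand and reads in reverse complement.
Bbs7, chr3:36613472-36613535, minus strand: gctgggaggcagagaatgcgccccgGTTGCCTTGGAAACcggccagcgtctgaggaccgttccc
Mks1, chr11:87853166-87853214, plus strand: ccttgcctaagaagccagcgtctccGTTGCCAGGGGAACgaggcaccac
Ahi1, chr10:20952560-20952589, plus strand: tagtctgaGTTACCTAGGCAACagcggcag
Tctn1, chr5:122264411-122264432, minus strand: ctgtgactGTTGCCCGGGCAAC

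The 4 genes with the full X-box differed widely in level, with means of 2131 for Bbs7, 1180.4 for Ahi1, 128 for Mks1 and 111 for Tctn1. Among genes with 1 listed transcript, the median was 87.0 per kb for 18 with the half-site, with a range of 9.02 to 793. For 21 without it the median was 145, with a range of 0.766 to 3341. Ift57 held the half-site at 2 places, 87 and 60 bases before its start site, and was at 119 per kb. The second reads GTTGCC, 1 base and GGTAAC, a spacing not searched for the full X-box. The first Ift57 site is shown with the half-site in capitals.
Ift57, chr16:49699182-49699237, plus strand: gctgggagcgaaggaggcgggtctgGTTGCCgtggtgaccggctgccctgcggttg

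The homeodomain core TAATCC, also searched on both strands, was in 3 of the 48 genes, or 6.25%, beside 7.56% of protein-coding genes. The 3 were Bbs1, Mak and Rpgrip1. They are shown with the core in capitals, which in Rpgrip1 lies on the opposite strand and so reads in reverse complement. It begins 197 bases before the start site in Bbs1, 218 in Mak and 28 in Rpgrip1.
Bbs1, chr19:4906794-4906849, minus strand: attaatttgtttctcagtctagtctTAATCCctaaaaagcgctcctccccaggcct
Mak, chr13:41070653-41070708, minus strand: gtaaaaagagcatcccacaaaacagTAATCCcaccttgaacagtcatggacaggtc
Rpgrip1, chr14:52110850-52110902, plus strand: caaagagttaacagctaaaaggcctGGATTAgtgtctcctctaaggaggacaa

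Mak and Rpgrip1 encode proteins of the photoreceptor axoneme and connecting cilium. Their means were 5.95 and 387, both with several listed transcripts, and that of Bbs1 was 821. A match describes these letters and does not show that a factor binds there.

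**Figure D4:**
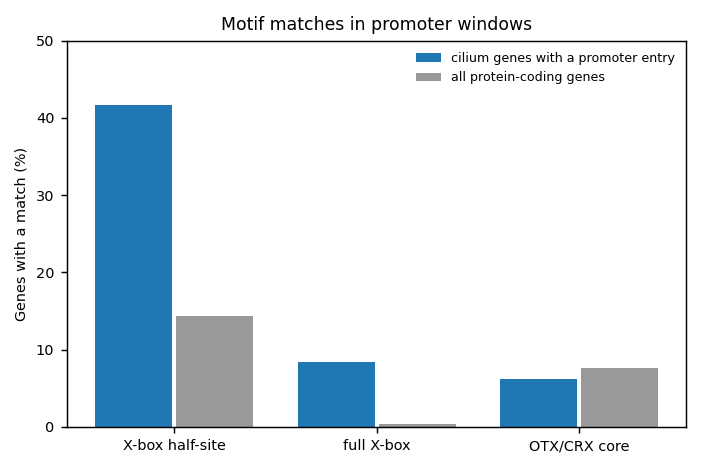
Share of genes (%) with a match in their promoter windows for 3 motifs, for the 48 cilium genes with an entry (blue) and 17492 protein-coding genes (grey). The X-box half-site was in 41.7% against 14.3% and the full X-box in 8.33% against 0.337%, while the OTX/CRX core was in 6.25% against 7.56%.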

How the data were processed

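Per the labels and the methods, the authors trimmed single-end reads of 75 bases with Trimmomatic, mapped them with TopHat2 to the NCBI mouse build that precedes GRCm38 and counted them with HTSeq per RefSeq transcript. The signal used here is the column of the deposited DESeq2 (1.22.2, R 3.5.1) table that holds the authors' mean of size factor normalized counts over all 16 libraries, 1 value a gene. How the transcript rows were reduced to it, and how HTSeq treated reads shared by transcripts, is not given in the sources used here. The remaining columns hold the authors' comparison of the groups (log2 fold change, standard error, statistic and p-values) and were not used. The 32 columns of counts in 2 tables were not used either, because their codes match no sample label. The count test planned for flight against ground control was therefore not run, and depth per library is not analysed here. Accessions and symbols of 31616 transcript rows gave the number of listed transcripts per gene.

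Level per kb is the mean divided by the length of the longest listed transcript in GENCODE M21, matched by accession for 51 members. Where no accession matched, as for Tctn2, the longest transcript of the same symbol was used. The transcripts matched for Tctn2 had no coding length. A length was found for 89.6% of genes above 0. No GENCODE coordinate was compared with the mapping. Promoters came from RefSeq (GRCm38.p6), and Rp2h was matched as Rp2. No test was run. Every member is named. Of other lists, the highest or lowest gene, and genes overlapping a member, are named. The members and lists were chosen with earlier results of these data known, and the motifs, windows and split by listed transcripts after the levels were seen. One marker gene and the sum of its list are not reported here. Functions were tested on simulated data. Python 3.11.15, numpy 2.4.6, pandas 2.3.3 and matplotlib 3.10.9 were used.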

Additional observations from a re-analysis of the deposited data

How the results depend on the processing

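With all 52 genes, their median level per kb of transcript lay at percentile 72.2 of 17617 genes above 0. It lay at 78.1 with no division by length, at 61.2 with coding length, at 62.8 over genes with a mean of at least 10, and at 70.7 over genes with 1 listed transcript, a choice added after seeing the data. The number of genes above the median of all genes was 42 of 52, and it was 43 of 52, 40 of 51, 33 of 45 and 39 of 42 in the same order. Of 11 ratios of level per kb between named genes, coding length turned that of Bbs7 to Arl6 from 1.06 to 0.436, moved 5 others by over 1.5 times and kept 5 within that. No paired analysis was possible because the count columns carry no replicate numbers. The alternatives planned for flight against ground control (another normalization, no filter, a replicate block, a stricter threshold and an offset for GC content and length) were not run for the same reason. A mean over pooled libraries gives no error, so small gaps between genes cannot be read. For genes with several listed transcripts it is not known which transcripts the mean covers.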
